A study of Mus musculus with 4 samples.

Results

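The genes described here are 7 transcription factor genes of ventral forebrain progenitors and their first neurons: Gsx1, Gsx2, Olig1, Olig2, Nkx6-2, Sp9 and Lhx6. They were chosen by symbol from the 24982 gene rows of a table of raw read counts, and all 7 were found and passed the filter on low counts, as did 14235 genes in all. The table holds RNA-seq counts from 4 libraries of micro-dissected mouse forebrain at E10.5, the embryonic day. The 2 control libraries have the genotype Chd7 +/f, which is 1 floxed allele with no Cre named. The 2 conditional knockout (cKO) libraries are Sox1 cre+/-; Chd7 f/f, so that the gene for CHD7, a chromatin remodeller, is deleted where a Cre named for Sox1 is active, broadly the early neural tube. Both groups carry a floxed Chd7 allele, and Cre is named in the cKO alone, so an effect of the Cre allele and an effect of Chd7 loss cannot be told apart. Whether each library came from 1 embryo or from a pool is not given in the labels, and p-values then measure the spread between these libraries, which may be technical.

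The ventral telencephalon, or subpallium, forms the ganglionic eminences, which supply the striatum and the inhibitory interneurons of the cortex. GSX2 and GSX1 are closely related homeodomain factors that give progenitors of the lateral eminence their ventral identity, upstream of the Dlx genes. OLIG1 and OLIG2 are bHLH factors of ventral progenitors, also made in the diencephalon, and later serve the oligodendrocyte lineage. NKX6-2 is a homeodomain factor of progenitors near the border of the medial and lateral eminences, SP9 a zinc finger factor of progenitors and new neurons of the eminences, and LHX6 a LIM-homeodomain factor of new neurons that leave the medial eminence.

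In the cKO libraries Gsx2, Sp9 and Olig2 fell, by 7.27-fold, 13.8-fold and 2.51-fold. These are 3 of the 7 genes called lower, with 0 called higher, at an adjusted p under 0.05 in edgeR's quasi-likelihood test. Over all genes tested, 2.13% were called lower and 1.57% higher, 3.70% in all. At an unadjusted p under 0.05, 5 of the 7 were lower and 0 higher. At that threshold, 1295 of all 14235 genes tested were lower and 1200 higher. Of the 7, DESeq2 called 3 lower and limma-voom 2, and both called 0 higher. Gsx1, Olig1 and Lhx6 had lower means and Nkx6-2 a higher mean, and none of these 4 differences passed the test. For 5 of the 7, Gsx1 and Olig1 among them, both cKO libraries lay below both controls, an arrangement seen for 24.0% of all genes tested. The median log2 fold change of the 7 was −1.33, beside −0.000277 over all genes tested. The 7 were chosen with earlier results of these data known, so these values are not independent evidence of their direction. In bulk tissue, fewer cells of a type and less RNA per cell cannot be told apart.

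**Figure D1:**
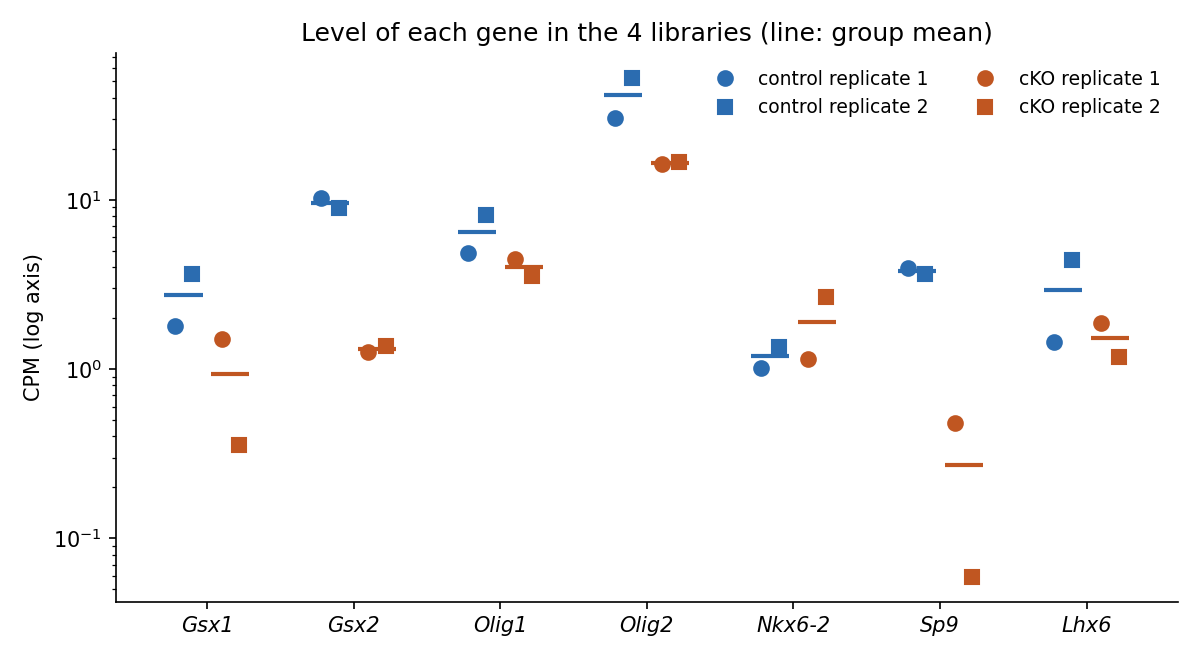
Level of each of the 7 genes in CPM (log axis) in the 2 control libraries (blue) and the 2 cKO libraries (orange), with circles for replicate 1, squares for replicate 2 and lines for group means. Gsx2 and Sp9 have tight controls far above the cKO points, while the control points of Olig2, Gsx1 and Lhx6 are themselves spread apart.

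Depth was alike, and markers of tissue differed both between the groups and between libraries of a group. Total counts were 16581252 to 17096522 per library, and levels are given in CPM, the count scaled to the size of its library, so that 1 CPM is about 17 counts. Chd7 counts were 5659 and 5867 in the control and 2256 and 2229 in the cKO libraries, which is a change of −1.35 on the log2 scale (SE 0.05, edgeR adjusted p = 8.7e-05). The forebrain label matched the counts: the summed level of a list of forebrain genes was 1584 to 1798 CPM in control libraries and 1268 to 1283 CPM in cKO libraries, and none of 8 Hox genes of the hindbrain and spinal cord list had more than 1 count in a library. Of 11 tested forebrain genes, edgeR called 5 lower, Pax6 among them, and 0 higher (5 lower and 1 higher at an unadjusted p under 0.05; DESeq2 called 1 higher and limma-voom 0). Erythroid genes were lower too, 6 of 10 called, with a summed level of 2877 to 3100 CPM in control libraries and 1799 to 1908 CPM in cKO libraries, and 4 adult globin genes were at 0. Neuronal genes moved with the members as well: of 16 tested, edgeR called 5 lower and 0 higher (12 lower and 0 higher at an unadjusted p under 0.05, DESeq2 6 lower and 0 higher, limma-voom 3 and 0), both cKO libraries lay below both controls for 13, and the median was −0.615. Their summed level was 1139 and 957.5 CPM in control libraries and 666 and 684.1 CPM in cKO libraries. Of 14 endothelial genes edgeR, DESeq2 and limma-voom called 0 (7 lower and 1 higher at an unadjusted p under 0.05). Both cKO libraries lay below both controls for 11 of the 14. Over all genes tested, that arrangement was seen for 24.0%, and edgeR called 2.13% lower and 1.57% higher. The 0 of 14 called is close to the share called over all genes. Of 18 genes of head mesenchyme and neural crest 1 was called lower, also close to that share. Their sum was 1049 and 1267 CPM in control libraries and 1191 and 742.3 CPM in cKO libraries. The part of these tissues in the results was not tested. Nkx2-1, the homeobox gene of the medial eminence and ventral hypothalamus, had counts of 57 and 577 in the control and 71 and 136 in the cKO libraries, replicate 1 first here and throughout. Shh, made at the ventral midline, had 113 and 387 in the control and 41 and 686 in the cKO libraries. Both genes were thus higher in replicate 2 than in replicate 1 of the same group.

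The stretches upstream of the 3 genes called lower show how their start regions are built. RefSeq promoter windows on GRCm38.p6, the build of the counts (named mm10 by UCSC), were matched for 6 of the 7 genes, all but Olig1. Each is printed 5′ to 3′ and ends before the first annotated start of the gene. Capitals mark matches on either strand to any of the motifs searched. These were the TATA box (TATAAA), the CCAAT box (CCAAT, read as ATTGG on the other strand) and the GC box (GGGCGG). The other motifs were the general E-box of bHLH factors (CANNTG), the form of it known for OLIG2 (CATATG, which every count of the general form includes) and a homeodomain core (TAATTA).
Gsx2, chr5:75075351-75075600, plus strand: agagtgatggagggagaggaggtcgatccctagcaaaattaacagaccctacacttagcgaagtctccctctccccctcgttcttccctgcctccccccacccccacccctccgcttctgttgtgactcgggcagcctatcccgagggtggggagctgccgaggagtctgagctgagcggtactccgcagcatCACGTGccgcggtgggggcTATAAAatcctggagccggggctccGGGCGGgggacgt
Sp9, chr2:73271676-73271924, plus strand: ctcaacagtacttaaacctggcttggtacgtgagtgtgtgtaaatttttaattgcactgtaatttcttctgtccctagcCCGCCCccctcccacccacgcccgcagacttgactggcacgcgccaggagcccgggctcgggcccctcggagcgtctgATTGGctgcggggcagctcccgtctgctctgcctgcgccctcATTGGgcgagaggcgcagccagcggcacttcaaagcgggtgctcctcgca
Olig2, chr16:91225300-91225456, plus strand: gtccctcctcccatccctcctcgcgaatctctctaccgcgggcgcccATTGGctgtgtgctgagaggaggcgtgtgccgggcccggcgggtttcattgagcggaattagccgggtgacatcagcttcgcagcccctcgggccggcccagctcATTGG

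These letters differ between the 3 genes. The Gsx2 stretch holds 1 E-box, 1 TATA box and 1 GC box. The Sp9 stretch holds 1 GC box and 2 CCAAT boxes, and the Olig2 stretch, 157 bases long, holds 2 CCAAT boxes; the rest of its window, not printed because a longer transcript starts there, brings 1 TATA box and 2 GC boxes. Among 32841 promoter windows of 250 bases, 66.2% hold CANNTG, 33.9% CCAAT, 32.7% GGGCGG, 12.4% TATAAA, 4.84% TAATTA and 3.47% CATATG. The 3 windows are rich in CpG, the dinucleotide at which DNA is methylated: over their 250 bases they hold 16 (Gsx2), 18 (Sp9) and 22 (Olig2), against a median of 6 over all windows. The windows of Gsx1, Nkx6-2 and the 3 starts of Lhx6, genes that were not called, hold 15, 26 and 7 to 17. A match is a string of letters in this window and was not measured for binding.

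Gsx2 (GRCm38 chromosome 5, 75075601 to 75077893, plus strand) gave the steadiest values of the group. Its counts were 171 and 152 in the control and 21 and 23 in the cKO libraries. Both controls were high, both cKO libraries were low and the groups were far apart. The level went from 9.60 ± 0.927 to 1.31 ± 0.0671 CPM (SD, n = 2 each), leaving 13.7% of the control level. The log2 fold change was −2.86 (SE 0.24, 95% interval −3.42 to −2.31, edgeR adjusted p = 0.00185). In order of p, Gsx2 ranked 30 of the 14235 genes. Leaving out any 1 library kept the value between −2.96 and −2.76 and the adjusted p at or under 0.0104. In the authors' deposited table the log2 fold change was −2.87 with an adjusted p of 1.98e-10.

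Gsx1 (chromosome 5, 147188696 to 147190947, plus strand), the paralogue of Gsx2, was lower in abundance and far less even. Its counts were 30 and 62 in the control and 25 and 6 in the cKO libraries. The highest cKO library was only a little below the lowest control, and the 6 counts of cKO replicate 2 stood well below all others. The 2 cKO libraries differed 4.24-fold, with a counting interval of 1.70 to 12.6, and the 2 controls 2.03-fold (1.29 to 3.25). These intervals compare the reads of 2 libraries and cover counting error only. The level was 2.72 ± 1.31 CPM for the control and 0.931 ± 0.814 for the cKO, with a log2 fold change of −1.55 (SE 0.64, 95% interval −3.04 to −0.06, unadjusted p = 0.0435, edgeR adjusted p = 0.271). The difference did not pass the test, and its interval reaches from 0.122 to 0.960 of the control level. The log2 fold change was −2.91 without cKO replicate 1 and −0.85 without cKO replicate 2.

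The ratio of the paralogues within a library does not depend on library scaling. There were 5.70 and 2.45 counts of Gsx2 per count of Gsx1 in the control and 0.840 and 3.83 in the cKO libraries. The ratios of the groups overlapped (two-sided exact permutation test p = 0.667, where the smallest p that 2 against 2 libraries allow is 0.333). The ratios did not show a difference between the responses of Gsx2 and Gsx1, and this test could not have shown one.

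Sp9 (chromosome 2, 73271926 to 73275771, plus strand) had the largest fold change of the 7. Its counts were 66 and 62 in the control and 8 and 1 in the cKO libraries. The controls were alike, and both cKO libraries held only a few reads. The level went from 3.80 ± 0.219 to 0.271 ± 0.299 CPM, which left 7.11% of the control level. The log2 fold change was −3.78 (SE 0.60, 95% interval −5.20 to −2.37, edgeR adjusted p = 0.0197). Counting error alone allows 0.208 to 0.950 CPM in cKO replicate 1 and 0.00150 to 0.330 CPM in cKO replicate 2, both under the lower bound of either control, 3.06 and 2.80 CPM (exact Poisson 95% intervals). The size of the fold rested on these few reads: the value was −5.84 without cKO replicate 1 and −2.96 without cKO replicate 2, with adjusted p of 0.011 and 0.0471. The longer GENCODE transcripts of Sp9 share 270 exon bases with the opposite-strand gene Cir1, and the RefSeq-paired one shares none. In the authors' deposited table the log2 fold change was −3.82 with an adjusted p of 5.13e-05.

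**Figure D2:**
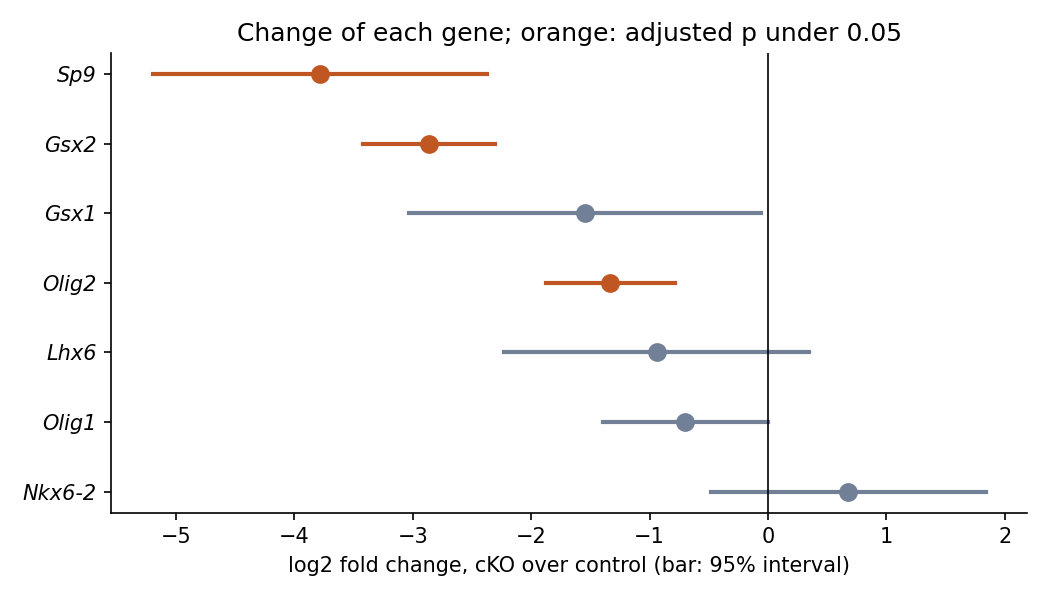
Log2 fold change of each gene, cKO over control, with its 95% interval from the edgeR fit (x axis); orange marks an adjusted p under 0.05. Sp9, Gsx2 and Olig2 lie clear of 0, the intervals of Gsx1 and Olig1 end just under 0 before adjustment, and those of Lhx6 and Nkx6-2 cross it.

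Olig2 (chromosome 16, 91225550 to 91228677, plus strand) was the most abundant of the 7. Its counts were 508 and 890 in the control and 271 and 281 in the cKO libraries. Both cKO libraries were low and nearly equal, and the controls lay above them but apart from each other, control replicate 2 being 1.72-fold higher (counting interval 1.54 to 1.92). The level went from 41.4 ± 15.5 to 16.5 ± 0.205 CPM. The log2 fold change was −1.33 (SE 0.23, 95% interval −1.87 to −0.79, edgeR adjusted p = 0.0277). Olig2 did not pass the threshold when cKO replicate 1 (adjusted p = 0.0796) or cKO replicate 2 (0.109) was left out, nor in limma-voom (0.0573). Without control replicate 2, the library with more Nkx2-1, the value was −0.89 (adjusted p = 0.00724), and without control replicate 1 it was −1.67 (0.00064). In the authors' deposited table the log2 fold change was −1.33 with an adjusted p of 2.07e-07.

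Olig1 (chromosome 16, 91269769 to 91271939, plus strand) lies 41.1 kb from Olig2, with no other tested gene between them. Its counts were 81 and 138 in the control and 74 and 60 in the cKO libraries. Control replicate 2 stood above the rest, and control replicate 1 was close to cKO replicate 1. Mean levels were 6.49 ± 2.31 CPM (control) and 4.005 ± 0.644 CPM (cKO), with a log2 fold change of −0.70 (SE 0.30, 95% interval −1.39 to −0.00239, edgeR adjusted p = 0.284). The difference did not pass the test, and without control replicate 2 it was −0.28 (adjusted p = 0.726). The exons of Olig1 share 157 bases with the opposite-strand gene Gm15966 in GENCODE M21, and counts without a strand option cannot tell reads there apart.

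Olig2 outnumbered Olig1 in every library, and by less in the cKO. There were 6.27 and 6.45 counts of Olig2 per count of Olig1 in the control and 3.66 and 4.68 in the cKO libraries. The controls were alike in this ratio although control replicate 2 had more of both genes. The groups did not overlap, with a mean log2 ratio of 2.67 in the control and 2.05 in the cKO, a difference of −0.62. The two-sided exact permutation test gave p = 0.333, the smallest that this test allows with 2 against 2 libraries. It could not show a difference between the paralogues whatever the ratios, and the values are a description.

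Nkx6-2 (chromosome 7, 139579376 to 139582797, minus strand) was the member with a higher mean in the cKO. Its counts were 17 and 23 in the control and 19 and 45 in the cKO libraries. The groups overlapped, and 1 library, cKO replicate 2, stood above the other three. Mean levels were 1.19 ± 0.236 CPM (control) and 1.90 ± 1.07 CPM (cKO; log2 fold change 0.68, SE 0.50, 95% interval −0.48 to 1.84, edgeR adjusted p = 0.548). Without cKO replicate 2 the value was −0.05. That library also had the highest Shh count, 686. Some GENCODE transcripts of Nkx6-2 share 246 exon bases with the opposite-strand gene Inpp5a, and those paired with a coding RefSeq transcript share none. In RefSeq coordinates Inpp5a lies 0.0 kb from Nkx6-2, and exon overlap in the RefSeq genes used for the counts was not measured. Its paralogue Nkx6-1 had counts of 90 and 86 in the control and 103 and 85 in the cKO libraries (log2 fold change 0.10, SE 0.22, edgeR adjusted p = 0.866).

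Lhx6 (chromosome 2, 36081950 to 36105992, minus strand) followed control replicate 2. Its counts were 24 and 75 in the control and 31 and 20 in the cKO libraries. Control replicate 2 was 3.07-fold above control replicate 1 (counting interval 1.91 to 5.08), and control replicate 1 fell among the cKO libraries. Mean levels were 2.93 ± 2.10 CPM (control) and 1.53 ± 0.485 CPM (cKO; log2 fold change −0.94, SE 0.55, 95% interval −2.23 to 0.35, edgeR adjusted p = 0.441). Without control replicate 2 the value was 0.08, and without control replicate 1 it was −1.53 (adjusted p = 0.143). Lhx8, its close relative in the medial eminence, had counts of 11 and 53 in the control and 0 and 3 in the cKO libraries (log2 fold change −4.29, SE 1.12, edgeR adjusted p = 0.0942), the same order within the controls. GENCODE places Gm27953 on the same strand over 104 exon bases of Lhx6.

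The spread between replicates differed from gene to gene. In the controls, replicate 2 over replicate 1 was 0.872 for Gsx2 (counting interval 0.696 to 1.09) and 0.922 for Sp9 (0.641 to 1.32). It was 1.67 for Olig1, 1.72 for Olig2, 2.03 for Gsx1 and 3.07 for Lhx6, with all 4 intervals above 1, and 1.33 for Nkx6-2 (0.679 to 2.65). The same ratio was 9.93 for Nkx2-1 (7.56 to 13.3) and 3.36 for Shh (2.72 to 4.18). Gsx2 and Sp9 were called in every fit that left out 1 library, and Nkx6-2, whose control interval also includes 1, in none. Between the cKO libraries, replicate 2 over replicate 1 was 1.88 for Nkx2-1 and 16.4 for Shh. The same cKO ratio was 2.33 for Nkx6-2 (1.33 to 4.21) and 0.236 for Gsx1 (0.0790 to 0.588). For Sp9 it was 0.123 (0.00277 to 0.915), from counts of 8 and 1. The part of ventral tissue, as read by Nkx2-1 and Shh, in the spread of the members was not tested.

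**Figure D3:**
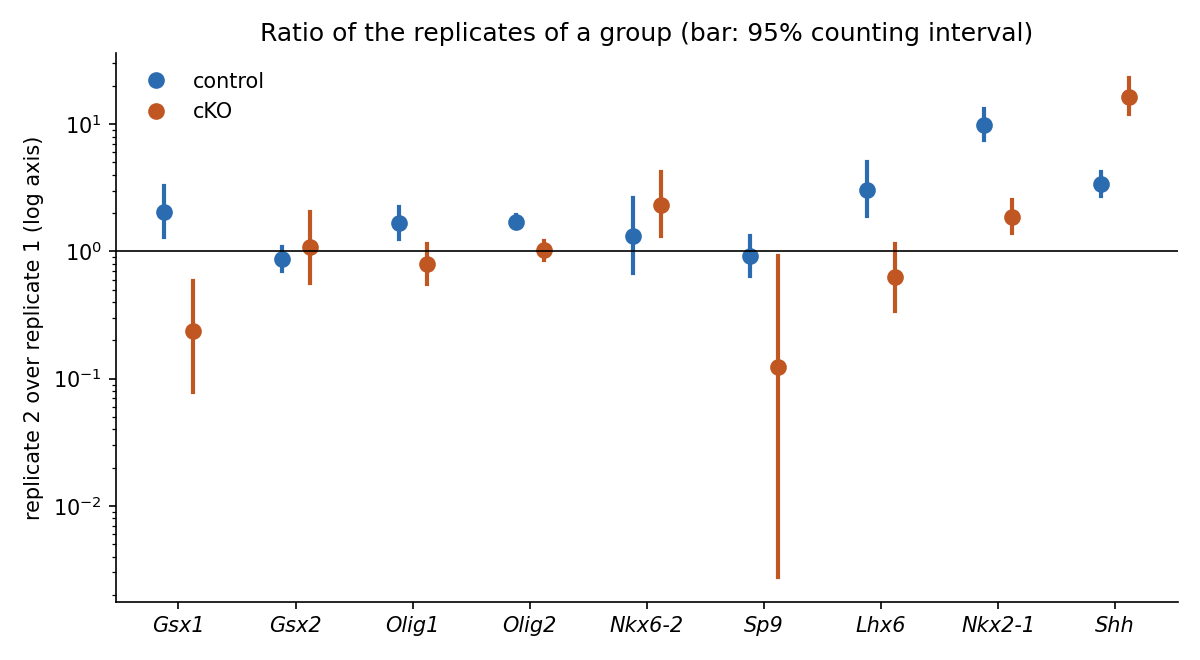
Ratio of replicate 2 to replicate 1 within the control (blue) and the cKO group (orange) for the 7 genes and for Nkx2-1 and Shh, with 95% counting intervals (log axis); 1 means equal libraries. The control intervals of Gsx2, Sp9 and Nkx6-2 include 1, while Lhx6 at 3.07 is the member nearest to Nkx2-1 at 9.93 in the controls.

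Leaving out each library in turn gave the range of each change. The Gsx2 values stayed within −2.96 to −2.76, whereas Sp9 ran from −5.84 to −2.96 and Olig2 from −1.67 to −0.89. Of the genes not called, Gsx1 ran from −2.91 to −0.85 and Olig1 from −1.02 to −0.28, both below 0 in each fit. Lhx6 ran from −1.53 to 0.08 and Nkx6-2 from −0.05 to 1.16, and both changed sign.

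**Figure D4:**
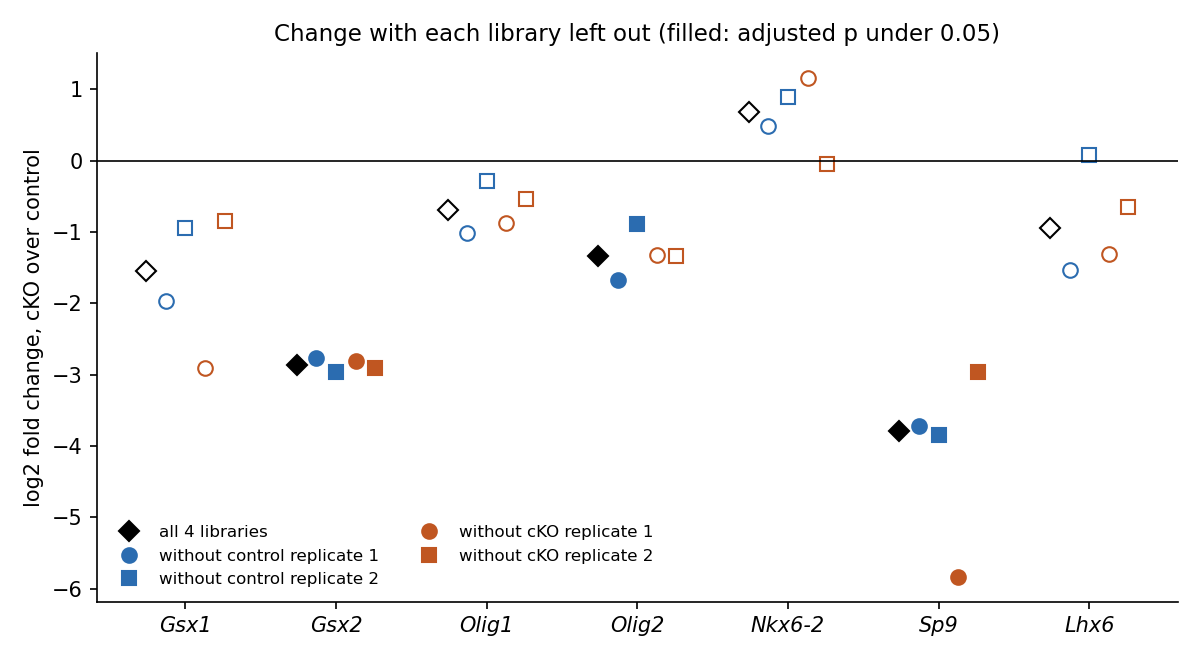
Log2 fold change of each gene, cKO over control (y axis), with all 4 libraries (black diamond) and with each library left out in turn (blue and orange); filled symbols have an edgeR adjusted p under 0.05. Gsx2 and Sp9 are filled throughout, Olig2 loses its call when either cKO library is left out, and Nkx6-2 and Lhx6 reach the other side of 0.

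Levels between genes were compared per kilobase of exon, using GENCODE transcripts that are paired with a coding RefSeq transcript. In the control, Olig2 was highest at 16.4 ± 6.13 CPM per kb, then Gsx2 at 5.77 ± 0.557, Olig1 at 3.002 ± 1.07 and Gsx1 at 1.54 ± 0.737. Nkx6-2 at 0.914 ± 0.182, Sp9 at 0.843 ± 0.0486 and Lhx6 at 0.818 ± 0.588 CPM per kb followed. Gsx1 had libraries that overlapped those of Nkx6-2 and Lhx6, and the 3 lowest genes overlapped among themselves. The order of the lowest 3 depended on which transcripts set the length. In the cKO the order on the same scale was Olig2 at 6.51 ± 0.0806, Olig1 at 1.85 ± 0.298, Nkx6-2 at 1.46 ± 0.825, Gsx2 at 0.789 ± 0.0404, Gsx1 at 0.525 ± 0.459, Lhx6 at 0.426 ± 0.135 and Sp9 at 0.0600 ± 0.0663 CPM per kb. Gsx2 thus went from the second place to the fourth. Of these neighbours, Olig1 overlapped Nkx6-2, and Gsx1 overlapped both Gsx2 and Lhx6, while the others did not overlap. With the exons of all transcripts as length, the cKO libraries of Nkx6-2 (0.6005 and 1.396 CPM per kb) also overlapped those of Gsx2 (0.7601 and 0.8172).

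Other subpallial genes fell with them. A list of 28 further genes, taken as a subpallial network and not all particular to it, had 27 tested. Of these, 13 were lower and 2, Sp8 and Zfp503, higher in the edgeR test, with a median log2 fold change of −0.83. The 6 with the smallest p were the non-coding Dlx6os1 (−5.47) and Dlx1as (−4.62), the homeobox genes Dlx1 (−3.56), Dlx2 (−3.08) and Meis2 (−1.24), and Gad2 (−4.26), which makes an enzyme of GABA synthesis, with edgeR adjusted p of 0.000515 to 0.00639. Helt, a bHLH gene counted among the 13, was chosen after its values were seen. It had 30 and 36 counts in the control and 0 in both cKO libraries. That is at least 21.9-fold lower when 3 counts over the group are taken as the floor. The list was chosen with earlier results of these data known and is not independent evidence of its direction.

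**Figure D5:**
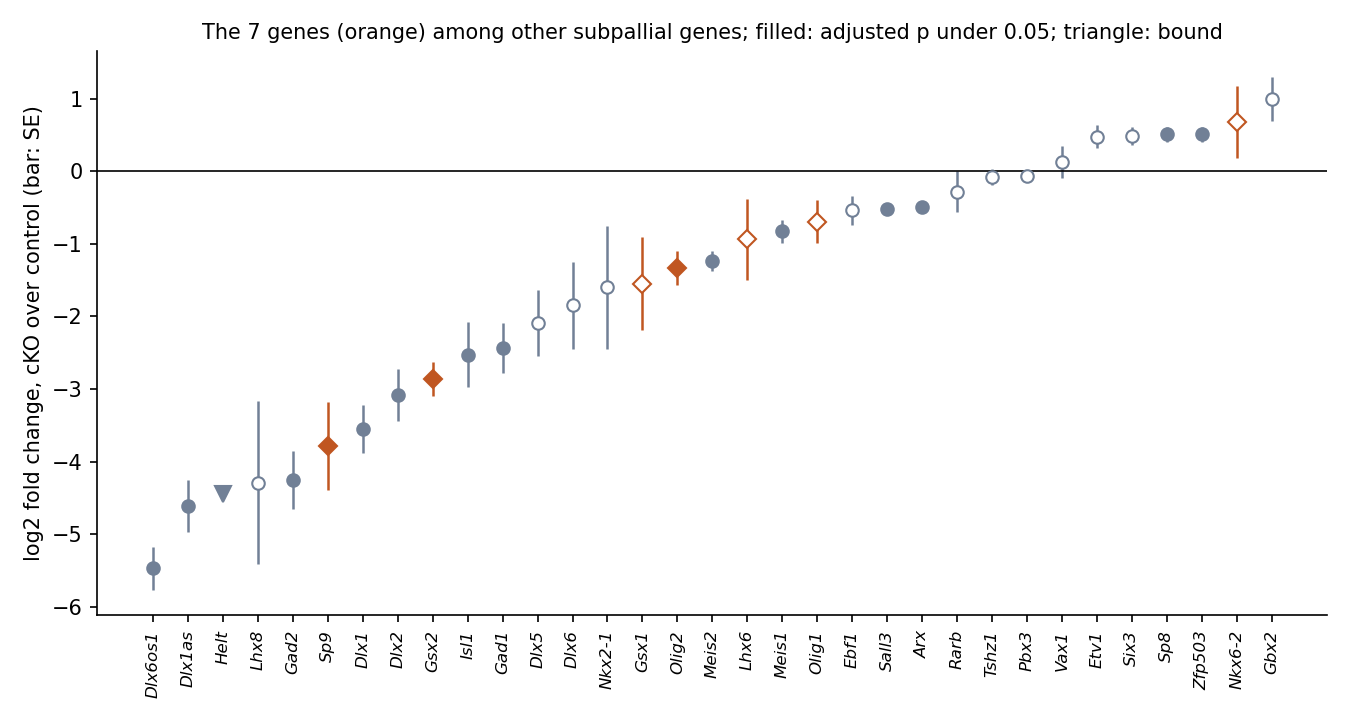
Log2 fold change with its SE (y axis) of the 7 genes (orange diamonds) and of other tested subpallial genes (grey), in order; filled symbols have an edgeR adjusted p under 0.05, and the triangle is an upper bound for Helt, which had 0 counts in the cKO. Sp9 and Gsx2 lie among Gad2, Dlx1, Dlx2 and Isl1, and Olig2 lies beside Meis2.

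Hedgehog signalling induces Olig2, Nkx6-2 and Nkx2-1 in ventral progenitors, and its genes were read as a list. Of 20 tested genes of the hedgehog and ventral midline list, edgeR called 0 lower and 0 higher, with 4 lower and 2 higher at an unadjusted p under 0.05; DESeq2 called 2 lower and 1 higher, and limma-voom 0. Over all genes tested edgeR called 3.70%, so 0 of 20 is close to that share and is not a result about the pathway. The median log2 fold change of the list was −0.07. Without control replicate 1, 3 genes were called lower. The smallest p belonged to Cdon, a co-receptor for Shh (log2 fold change 0.33, SE 0.07, edgeR adjusted p = 0.0544), and to Nkx2-2, a homeobox gene of ventral progenitors (−1.52, SE 0.39, adjusted p = 0.0888). Nkx2-2 counts were 64 and 125 in the control and 39 and 26 in the cKO libraries, highest, like those of Lhx6 and Olig2, in control replicate 2.

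Genes of the dorsal telencephalon, which GSX2 is known to oppose, moved both ways: 5 of 17 fell and 2 rose (median −0.25). Pax6, the homeobox gene that opposes Gsx2 at the border of pallium and subpallium, fell from 213 ± 7.23 to 105 ± 0.619 CPM (log2 fold change −1.03, SE 0.05, edgeR adjusted p = 0.000342). The nuclear receptor gene Nr2f1 (−1.30), Dmrta2 (−0.70) and the LIM-homeobox gene Lhx2 (−0.87) fell too. Lmx1a (1.45) and the Wnt ligand gene Wnt8b (0.85), both of the dorsal midline, rose. Without control replicate 2, 9 of the 17 were called lower, and without cKO replicate 2, 3.

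The oligodendrocyte list gave 1 call among 15 tested genes, with 0 higher and 4 lower at an unadjusted p under 0.05 (edgeR; DESeq2 called 2 lower and 0 higher, limma-voom 1 and 0). That call was Ptprz1, a receptor phosphatase gene also made by neural progenitors, whose mean level was 281 ± 72.5 CPM (control) and 103 ± 11.7 CPM (cKO; log2 fold change −1.44, SE 0.16, edgeR adjusted p = 0.00583). Over all genes tested edgeR called 3.70%, so 1 of 15 is close to that share and is not a result about the lineage. The median of the list was −0.23. Without control replicate 1, control replicate 2 or cKO replicate 1 there were 2 lower calls, and without control replicate 2 there was 1 higher call. Sox10, a defining gene of that lineage and of neural crest, had 0 and 21 counts in the control and 39 and 14 in the cKO libraries.

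Relatives of the 7 genes went in both directions, with 3 of 18 tested lower and 3 higher (median −0.08). Among LIM-homeobox genes Lhx9 (−2.33), Isl1 (−2.53) and Lhx2 fell, and Lmx1a rose. Among Sp genes, the paralogues of Sp9 went the other way: Sp8 rose from 56.5 ± 4.71 to 80.3 ± 10.47 CPM (0.51, SE 0.10, edgeR adjusted p = 0.0425), and Sp5, a Wnt target gene, from 9.83 ± 0.414 to 21.4 ± 4.95 CPM (1.12, SE 0.18, adjusted p = 0.0207). Sp1, Sp2, Sp3 and Sp4 had log2 fold changes of 0.03, −0.11, −0.02 and −0.06, and none was called. Olig3, a bHLH gene of dorsal and thalamic progenitors, had counts of 337 and 221 in the control and 179 and 182 in the cKO libraries (−0.62, SE 0.21, adjusted p = 0.190). Without cKO replicate 2, 1 relative was called lower.

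The nearest genes on the chromosome that are not themselves among the 7 gave no calls. Of these 12 tested neighbours, which leave out Olig1 and Olig2 as neighbours of each other, edgeR called 0, DESeq2 0 and limma-voom 0, and 2 had an unadjusted p under 0.05. Over all 14235 genes tested edgeR called 3.70%, so 0 of 12 is close to that share. At an unadjusted p under 0.05, 1295 of all genes were lower and 1200 higher. The log2 fold changes of the 12 neighbours ran from −0.24 to 0.20, and the smallest edgeR adjusted p was 0.107. Gsx2 lies between Chic2, 31.0 kb away (0.01), and Pdgfra, 73.4 kb away (−0.17). Sp9 lies between Ola1 (0.17) and Cir1, 8.1 kb away (0.00), and the Olig pair between Paxbp1 (0.04) and Ifnar2, 100.8 kb away (−0.02).

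The genes closest in pattern were found by the distance between log2 CPM values, each centred on its mean over the 4 libraries, among genes whose mean reached 5 CPM. The 3 nearest to Sp9 were Dlx1 (distance 0.359), Dlx2 (0.416) and Dach2 (1.03), and Dlx2 lies 1725.2 kb from Sp9 on chromosome 2. St18 (0.528), Map7 (0.578) and Pou4f1 (0.606) were nearest to Gsx2, and Mab21l1 (0.499), Csf2rb (0.905) and Capn3 (1.04) to Gsx1. Olig2 was closest to Mapt (0.385), Kel (0.404) and Tcf7l2 (0.462), and Olig1 to AI450353 (0.148), Fap (0.204) and Hapln1 (0.208). Nkx6-2 was closest to Ntn1 (0.144), Epha10 (0.148) and Syt2 (0.197), all highest in cKO replicate 2. For Lhx6 the nearest were Gata2 (0.571), Olig1 (0.616) and Hapln1 (0.629). Among the 7, Olig1 and Lhx6 were the closest pair and Sp9 and Nkx6-2 the farthest, at 4.61. With 4 libraries, many genes share a pattern, and these distances are a description.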

How the data were processed

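Per the file headers, the authors' deposited counts are paired-end read counts over exons, summed per gene with featureCounts 2.0.1 and the UCSC copy of RefSeq for mm10, with no strand option. The submitters' processing notes name HISAT2 and DESeq2 without versions. The authors' deposited table holds log2 fold changes, p-values and a Wald score; its normalized counts, a signal scaled by the authors with 1 constant per library, and the score were not used.

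Genes were kept by filterByExpr (minimum count 10) and scaled by TMM. Groups were tested against each other in edgeR 4.0.16 (R 4.3.3; glmQLFit, glmQLFTest, no covariate, Benjamini-Hochberg over 14235 genes, adjusted p under 0.05). SE is the log2 fold change over the root of F. Alternatives used DESeq2 1.42.0 and limma 3.58.1. On simulated counts for 14083 genes, 89 of 100 genes changed 2-fold and 98 of 100 changed 4-fold were recovered, with 4 false calls among 191. The changed genes had a mean of at least 2 CPM, and the simulated spread followed the trend with level, not each gene's own. These rates may not hold for genes as low or as variable as Gsx1, Nkx6-2 and Lhx6. The members and lists were chosen with earlier results of these data known. Named genes are the 7, Chd7, Nkx2-1, Shh, up to 6 called genes per list by p (or the 2 with the smallest p), chromosomal neighbours and 3 nearest patterns (log2 CPM, prior count 2, without predicted genes); others named were chosen after their values were seen. Columns without a sample: 0. Replicates were checked as distinct libraries (chi-square per degree of freedom 5.57 and 4.69). Some genes are not reported here.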

Additional observations from a re-analysis of the deposited data

How the results depend on the processing

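Of 84 alternative values of the 7 changes, 79 kept direction and side of the threshold. Those of Olig2 that lost the call are given above. Without 1 library, Nkx6-2 ran from −0.0505 (without cKO replicate 2) to 1.16, and Lhx6 from −1.53 to 0.0826 (without control replicate 2), so both changed sign; the cause was not tested. Without 1 library, 131 to 418 genes in all were called lower and 80 to 351 higher. The lists ran, lower and higher, from 9 to 13 and 1 to 2 (subpallial), 0 to 3 and 0 to 1 (hedgehog), 3 to 9 and 2 to 2 (dorsal), 1 to 2 and 0 to 1 (oligodendrocyte) and 1 to 4 and 2 to 2 (relatives). Subpallial genes called higher numbered 1 in limma-voom. The DESeq2 Wald test called 2 hedgehog genes lower and 1 higher, and 2 oligodendrocyte genes lower. With the replicate block, 137 genes were called higher, subpallial genes called higher numbered 1, and the same 3 of the 7 genes were lower. Same-numbered libraries did not deviate together over the genes as a whole (correlation −0.0131 over 11103 genes). The labels give them a shared number only, and whether they shared a litter or a batch was not tested. A fit without 1 library assumes that the lone library varies like the other group. Gsx1, Nkx6-2, Sp9 and Lhx6 rest on 1 to 75 counts per library, which makes their counting intervals wide. Replicates of Gsx1 in both groups, the Lhx6 controls, and the cKO libraries of Nkx6-2 and Sp9 differed by more than counting error.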

Other observations

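The following genes of neighbouring progenitor domains were chosen after their values were seen. Dbx2, a homeobox gene of progenitors that abut those with Nkx6 genes in the neural tube, had 12 and 15 counts in the control and 0 and 3 in the cKO libraries (edgeR adjusted p = 0.131). Pax2, a paired-box gene of the optic stalk and the midbrain border, had 11 and 31 counts in the control and 64 and 80 in the cKO libraries (log2 fold change 1.78, SE 0.45, edgeR adjusted p = 0.0846). Neither passed the test.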
